A study of Mus musculus with 3 samples.

Results

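Fibroblasts make the collagen-rich matrix of the aortic wall, and the cells described here are those whose RNA was read although the cells had been sorted for CD45, the surface protein of blood-derived cells that Ptprc encodes. Members were chosen by measured UMIs (unique molecular identifiers, each 1 captured RNA molecule): a cell barcode was taken as a fibroblast when it held at least 2 UMIs of Dcn, at least 5 UMIs of Col1a1, Col1a2 and Col3a1 together, at most 1 UMI of Ptprc, and 0 UMIs of Cd79a, Csf1r and Cd3e. Among 20903 barcodes kept for having at least 200 detected genes and at most 10% mitochondrial UMIs, 213 met this rule: 22 in the control library, 56 in the library labelled HHcy (below also the HHcy-labelled library) and 135 in the WD library. Per the labels, whole aortas with their adventitia were digested, live nucleated CD45+ cells were sorted, and 1 droplet single-cell library was made for each of 3 groups. All mice were ApoE-/- on the C57BL/6J strain background, so the control animals also carry the deletion: the labels give the control group no treatment, the HHcy group homocysteine in its drinking water (1.8 g/L, 4 weeks) and the WD group western diet (4 weeks). How many mice went into a library, and how old they were, is not given there.

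Adventitial fibroblasts form the outer coat of an artery. They lay down fibrillar collagens, small proteoglycans and microfibrils, and they signal to leukocytes through chemokines and complement. In mice, stromal cells that carry Pi16, Dpp4 and Cd248 are known as a universal, progenitor-like fibroblast state of the outer adventitia and fascia, while cells that carry Col15a1 and Cxcl12 are known from the space around vessels. Homocysteine is a sulfur amino acid of the methionine cycle whose excess in blood accompanies vascular disease, and a western diet raises the plasma cholesterol of mice that lack apolipoprotein E.

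With 1 library in each group no difference between groups could be tested, and every comparison below describes libraries. UMIs were summed over the fibroblasts of a library and scaled to 1000000 UMIs in all (CPM). Differences are log2 ratios to the control library with 95% intervals, which like all intervals here cover counting error only and leave out differences between mice. A gene was called higher or lower when it differed at least 2-fold and its interval left out equality. Both treated libraries were compared with the same control library of 22 cells, so the comparisons are not independent of each other. The control fibroblasts held 139522 UMIs, those of the HHcy-labelled library 488208 and those of the WD library 1337026. A gene had to reach 30 UMIs in the libraries compared, so a gene absent from the small control library could pass through the other library alone, while a gene absent from the other library mostly could not. Counts and medians of gene lists below cover the genes that passed and, because of this, are descriptions and no support for a list's direction. Genes with 0 control UMIs were set against a floor of 3 UMIs over the control library, and such values are bounds.

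Apoe, the gene targeted in all mice, had 0 UMIs in the control fibroblasts, 143 UMIs in 22 fibroblasts of the HHcy-labelled library (293 CPM) and 9 UMIs in 9 fibroblasts of the WD library (6.73 CPM). The Apoe of the HHcy-labelled library thus went against its label. Of its 143 UMIs, 86 lay in 1 barcode that also held 36 of the library's 39 fibroblast UMIs of Pecam1, an endothelial gene. In the same library 39.3% of fibroblasts and 23% of B cell barcodes had an Apoe UMI, and after thinning every barcode to 1000 UMIs the shares were 17.0% and 4.4%. B cell barcodes (at least 2 UMIs of Cd79a, 0 of Csf1r and Cd3e) serve throughout as cells that should lack fibroblast RNA.

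The fibroblast share of kept barcodes was 0.364% in the control library (exact Clopper-Pearson interval 0.228% to 0.551%), 0.687% in the HHcy-labelled library (0.519% to 0.891%) and 2.01% in the WD library (1.69% to 2.38%). The WD interval overlapped neither of the others, while those of the control library and the HHcy-labelled library overlapped. The CD45 sort gate can set these shares, because a fibroblast has to pass it to be counted. Median UMIs per fibroblast were 6145.5, 6812 and 8166 in the control library, the HHcy-labelled library and the WD library, and median detected genes were 2316, 2243 and 2699. No barcode was a fibroblast in more than 1 library, and 1 fibroblast barcode of the HHcy-labelled library also occurred among the other libraries' barcodes.

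**Figure D1:**
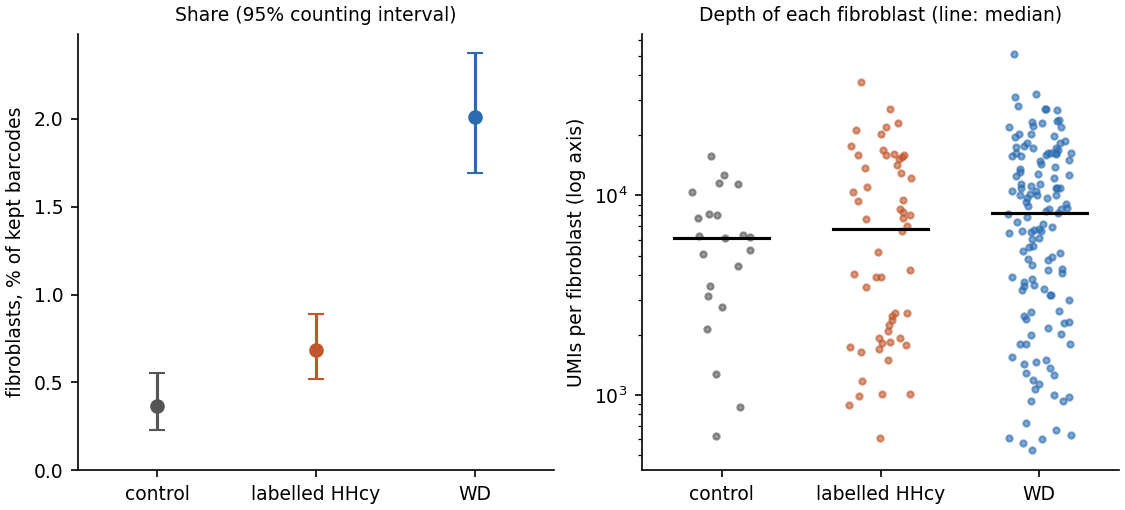
Left, fibroblasts as a percent of kept barcodes in each library, with exact 95% intervals for counting error. Right, UMIs of each fibroblast (dots, log axis) with the median as a line; the share is highest in the WD library at 2.01%, and depth spans 529 to 51300 UMIs there.

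The label was checked against Pdgfra, the receptor for platelet-derived growth factor that marks fibroblasts, and Dpt, which encodes the matrix protein dermatopontin; neither was used by the rule. Pdgfra UMIs were found in 16 of 22 control fibroblasts, 40 of 56 fibroblasts of the HHcy-labelled library and 99 of 135 WD fibroblasts, at 516, 348 and 405 CPM. Dpt was found in 17, 49 and 119 of them, at 1175, 1368 and 1500 CPM. At least 3 of the 5 markers Dcn, Col1a1, Col3a1, Pdgfra and Dpt were present in 22, 55 and 134 cells. Because the rule used Dcn, Col1a1 and Col3a1, this count mostly follows from the rule and is no check of the label. The 5 markers together reached only 4.77, 62.8 and 143 CPM in B cell barcodes, so B cell barcodes of the control library held the least fibroblast RNA. Genes of these cells furthest above the immune barcodes included Sfrp2, a secreted Wnt modulator, at 1081 CPM over all 213 fibroblasts against 2.3 CPM in B cell barcodes, and the matrix genes Fmod and Aspn. The hedgehog-binding gene Hhip, the neurotrophin receptor gene Ntrk2, the chemokine gene Ccl19 and the growth factor gene Gdf10 also stood among them. Clustering of the fibroblasts gave 4 groups, which were left unnamed and are not compared.

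Barcodes near the limits of the rule were few. Dcn stood at exactly 2 UMIs in 3 WD fibroblasts and in none elsewhere, and 1 WD barcode with 1 Dcn UMI fell outside. Collagen UMIs numbered 5 to 7 in 1, 3 and 4 fibroblasts of the control library, the HHcy-labelled library and the WD library, and 3 to 4 in 0, 1 and 3 barcodes outside. Exactly 1 Ptprc UMI was present in 3, 11 and 21 fibroblasts, while 0, 0 and 2 barcodes with 2 Ptprc UMIs fell outside. Of 30, 99 and 194 barcodes with the Dcn and collagen UMIs, the leukocyte limits removed 8, 43 and 59.

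Other cells' RNA remained in part, and doublets were removed only by those limits, since no doublet caller was run. Of the myeloid list of 16 genes, at least 4 were detected in 1 control fibroblast, 9 fibroblasts of the HHcy-labelled library and 50 WD fibroblasts, and the list summed to 373, 332 and 566 CPM. At least 4 of the 12 dendritic cell markers were found in 4, 12 and 33 fibroblasts (487, 701 and 614 CPM), and at least 4 of the 13 B cell markers in 1, 10 and 3 (466, 754 and 337 CPM). Pan-leukocyte markers summed to 330, 393 and 315 CPM, neutrophil markers to 337, 619 and 787 CPM, and T or NK cell markers to 0, 94.2 and 10.5 CPM. Smooth muscle markers stood at 272, 447 and 682 CPM, pericyte markers at 487, 326 and 675 CPM, endothelial markers at 179, 338 and 156 CPM and Schwann cell markers at 337, 242 and 227 CPM. Mesothelial markers (21.5, 18.4 and 9.0 CPM), adipocyte markers (7.2, 24.6 and 30.7 CPM), mast cell markers (7.2, 0 and 3.0 CPM) and erythroid markers (0, 2.0 and 9.0 CPM) were also low. Csf1r, Cd79a and Cd3e were at 0 by the rule, Lcn2 stands on the neutrophil list, Ebf1 on the B cell list and Acta2 and Tagln on the smooth muscle list although fibroblasts can express them. Per cell the myeloid list ranged from 0 to 6421 CPM in control, 0 to 24554 CPM in the HHcy-labelled library and 0 to 18232 CPM in the WD library, with 5, 1 and 1 of its genes at 0 in all fibroblasts. The myeloid level was highest in the WD library, as were the chemokine and complement values described below. So was the neutrophil level, but Lcn2 held 647 of the 1052 neutrophil list UMIs there and 0 of 47 in the control library. The part of leukocyte RNA in those results was not tested. Values from the 20, 38 and 83 fibroblasts with few leukocyte markers are given beside those results. These cells had fewer than 4 markers of each of the B cell, T or NK cell, myeloid and neutrophil lists.

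In the HHcy-labelled library, 177 of 3126 genes were called higher than in the control library (5.66%) and 113 were called lower (3.61%), 290 (9.28%) in all, with a median over all genes of 0.06. The WD library had 143 of 5884 genes called higher (2.43%) and 178 lower (3.03%), 321 (5.46%) in all, with a median of 0.03. These shares are the background against which each gene list below is read.

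Matrix genes made up much of the RNA. Col1a1 and Col1a2, the chains of type I collagen, and Col3a1 were part of the rule and are given as a description only. Col1a1 stood at 9196 CPM in the control library, 5369 CPM in the HHcy-labelled library and 5178 CPM in the WD library, and Col3a1 at 7081, 7437 and 7473 CPM. Of 17 collagen genes, 15 were compared in the HHcy-labelled library, with 1 higher, 2 lower and a median of -0.42. The WD library had 16 compared, with 0 higher, 2 lower and a median of -0.57. Both medians include Col1a1, Col1a2 and Col3a1, so they are drawn in part from genes of the rule. Col4a2, a basement membrane collagen, had 50, 73 and 249 UMIs (358, 150 and 186 CPM) and was lower in the HHcy-labelled library by a log2 ratio of -1.26 (-1.80 to -0.71). Col6a2, a chain of the microfibrillar type VI collagen, stood at 903, 557 and 399 CPM and was lower in the WD library at -1.18 (-1.46 to -0.89). Its partners Col6a1 and Col6a3 had WD values of -0.69 each and were not called. The 1 higher collagen in the HHcy-labelled library was Col12a1, with 2, 106 and 40 UMIs, at 3.92 (2.03 to 6.99), and 1 cell held 51% of the 106.

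Small leucine-rich proteoglycans, which bind collagen fibrils and set their spacing, had 3 of 10 members lower and 0 higher in both comparisons, with medians of -0.48 in the HHcy-labelled library and -0.42 in the WD library. Fmod, which encodes fibromodulin, had 109 UMIs in 15 of 22 control cells, 111 UMIs in 20 of 56 cells of the HHcy-labelled library and 358 UMIs in 56 of 135 WD cells (781, 227 and 268 CPM). It was lower at -1.78 (-2.18 to -1.39) and -1.54 (-1.86 to -1.22). After thinning to 1000 UMIs, 35.0%, 17.0% and 20.2% of fibroblasts had a Fmod UMI, and their exact intervals overlapped. Omd and Podn, further members of this family, were the other lower genes in both libraries (Omd -1.09 and -1.26, Podn -1.04 and -1.13). Dcn itself, which the rule used and which is among the 10, stood at 13625, 13132 and 11884 CPM.

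Elastic fibre genes split. Eln, which encodes elastin, stood at 2609, 1280 and 1310 CPM and was lower in the HHcy-labelled library at -1.03 (-1.22 to -0.84). In the WD library its value of -0.99 fell just short of the 2-fold limit. Of 19 compared genes of the elastic fibre and microfibril list of 20, 6 were higher and 2 lower in the HHcy-labelled library (median 0.26), and 3 were higher and 1 lower in the WD library (median 0.22). Ltbp2, a latent TGF-beta binding protein gene, and Mfap2, a microfibril gene, were higher in both, at 3.36 (1.46 to 6.44) and 3.09 (1.21 to 6.15) for Ltbp2 from 2 control UMIs, and at 1.44 and 1.22 for Mfap2 from 6. The 6 higher genes of the HHcy-labelled library became 2 when every cell weighed the same and 2 without the 3 deepest fibroblasts of each library. Mfap4, a microfibril-associated gene, was lower in the HHcy-labelled library at -1.40, with a WD value of -0.09. Lox, the collagen and elastin cross-linking oxidase, was called higher in the WD library at 1.03 (0.47 to 1.66), and its relative Loxl2 was lower there at -1.23 (-1.90 to -0.50).

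Among glycoproteins and collagen-processing genes, 3 of 26 were higher and 2 lower in the HHcy-labelled library (median -0.11), and 0 of 27 were higher and 1 lower in the WD library (median -0.20). Smoc2, a calcium-binding matricellular protein gene, had 186, 185 and 1017 UMIs in 18, 40 and 98 cells. Its median cell had 953, 257 and 536 CPM, and its pooled level of 1333, 379 and 761 CPM gave log2 ratios of -1.81 (-2.12 to -1.51) and -0.81 (-1.04 to -0.58). Fn1, which encodes fibronectin, had 59, 1319 and 649 UMIs and was higher in the HHcy-labelled library at 2.68 (2.30 to 3.08). Of the 59 control UMIs, 51 lay in 1 cell, and 89.5% of those in the HHcy-labelled library lay in the 12 cells rich in Pi16 described below. With every cell weighing the same its value was 1.16. Plod2, a collagen lysyl hydroxylase gene, was lower in the HHcy-labelled library at -1.84, with -0.26 in the WD library. Lama2, a laminin chain gene, was the lower gene of the WD library at -1.06.

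Mgp encodes matrix Gla protein, an inhibitor of vascular calcification. It was detected in 22 of 22, 50 of 56 and 134 of 135 fibroblasts, with 3353, 5657 and 28866 UMIs. The pooled level was 24032, 11587 and 21590 CPM and the median cell had 12117, 7182 and 17203 CPM. Mgp was lower in the HHcy-labelled library at -1.05 (-1.11 to -0.99), but when each cell weighed the same the value was -0.61, and without the 3 deepest fibroblasts of each library it was -0.59, short of 2-fold. The WD value was -0.15. In WD B cell barcodes 17.8% had a Mgp UMI, so this RNA was also present outside fibroblasts.

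The Pi16 list, genes of the progenitor-like adventitial state, had 13 of its 18 genes compared in the HHcy-labelled library, of which 10 were higher and 0 lower, with a median of 1.74. Of the 10 higher genes 2, Pi16 and Cd34, had 30 control UMIs or more; the other 8 passed the filter only with the UMIs of the library where they were high. For the WD library 11 were compared, 3 were higher and 0 lower, with a median of 0.47. In the HHcy-labelled library Dpp4 and Procr, with 0 control UMIs, passed the filter through 35 and 60 UMIs and entered its median at their bound. Gli1, Efhd1, Limch1, Stmn4 and Bmp7 had 12, 24, 17, 6 and 2 UMIs in the HHcy-labelled library and were not compared for it. The count of 10 higher genes became 7 when every cell weighed the same, 7 among fibroblasts with few leukocyte markers and 0 after thinning to 1000 UMIs. Of the 10, only Pi16 still reached 30 UMIs after thinning, at 0.98, so the 0 mostly reflects genes that were no longer compared.

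Pi16 itself (ENSMUSG00000024011, GRCm38 chromosome 17, 29318796 to 29328903) encodes a secreted peptidase inhibitor. It had 89 UMIs in 17 of 22 control fibroblasts, 1017 UMIs in 40 of 56 fibroblasts of the HHcy-labelled library and 1218 UMIs in 106 of 135 WD fibroblasts. The pooled level was 638, 2083 and 911 CPM, a log2 ratio of 1.71 (1.39 to 2.04) in the HHcy-labelled library and 0.51 (0.20 to 0.84) in the WD library. The share of cells and the typical cell did not follow the pooled level. The median cell had 469, 463 and 418 CPM, and after thinning to 1000 UMIs 45.0%, 43.4% and 38.7% of fibroblasts had a Pi16 UMI, against 0.2% to 0.4% of thinned B cell barcodes. With every cell weighing the same the value of the HHcy-labelled library was 0.99, and after thinning it was 0.98.

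**Figure D2:**
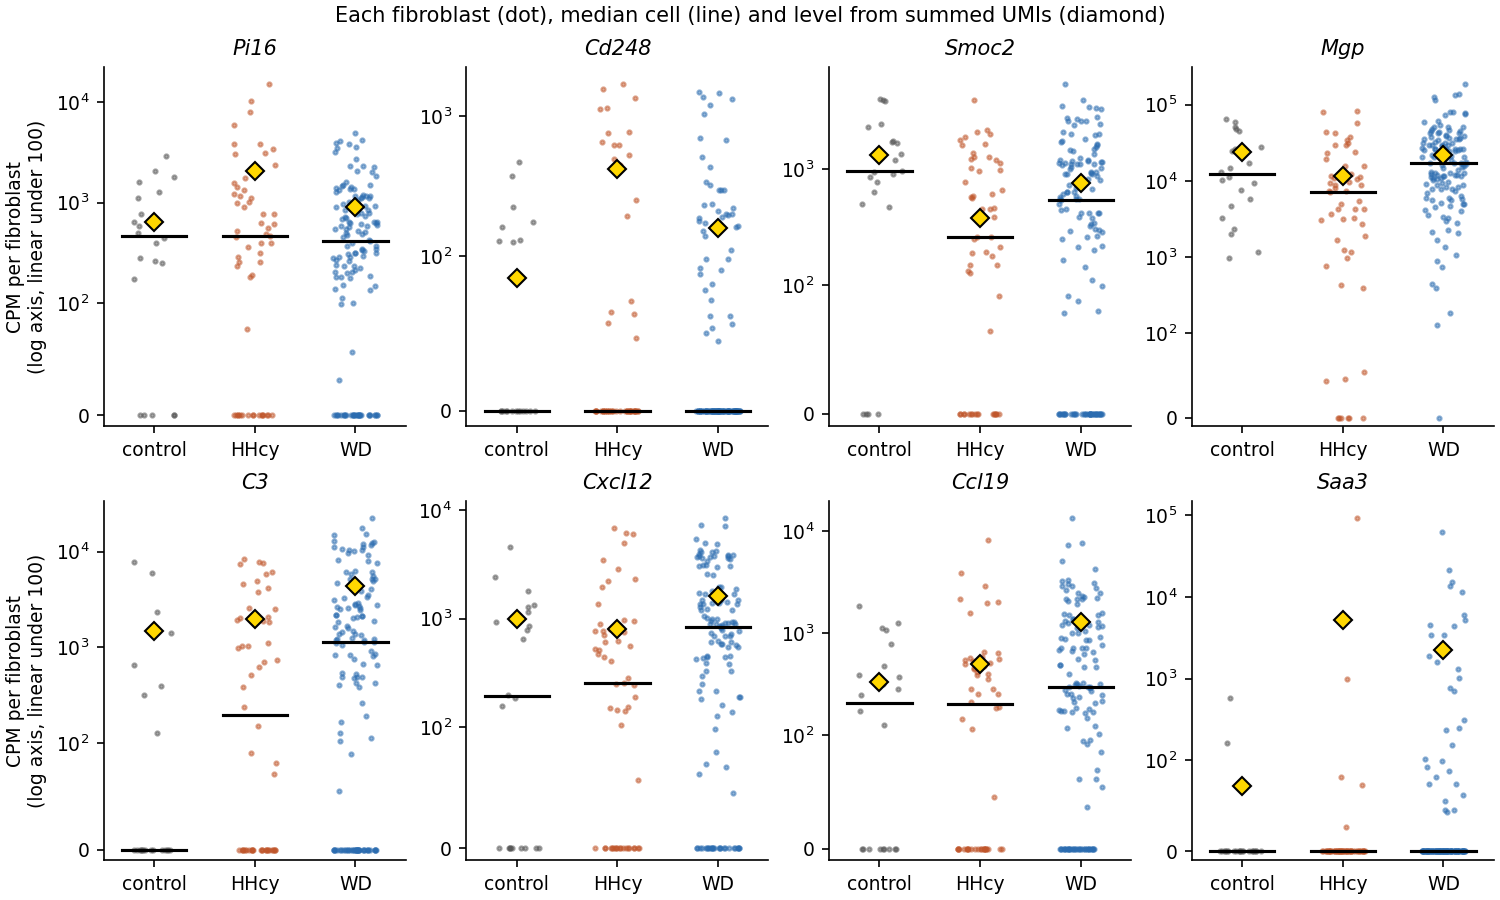
CPM of 8 genes in each fibroblast (dots) of the control library, the HHcy-labelled library and the WD library, with the median cell as a line and the level from summed UMIs as a diamond; the axis is logarithmic above 100 CPM. For Pi16 the lines lie at 469, 463 and 418 CPM while the diamonds lie at 638, 2083 and 911 CPM, and for C3 both lines and diamonds are highest in the WD library.

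Pi16 UMIs were spread unevenly over the fibroblasts. Fibroblasts with at least 10 Pi16 UMIs, a limit chosen after the values were seen, numbered 3 in the control library, 12 in the HHcy-labelled library and 24 in the WD library, with median depths of 6129, 16477 and 19311.5 UMIs. In the HHcy-labelled library the 12 cells held 45.3% of all fibroblast UMIs, 92.2% of Pi16 UMIs (938 of 1017), 91.3% of Cd248 UMIs (188 of 206) and 93.9% of Sema3c UMIs (153 of 163). They also held 100% of the 35 UMIs of Dpp4, the peptidase that marks this state, and 100% of the 37 UMIs of the ligand gene Wnt2. The other 44 fibroblasts of that library had 296 CPM of Pi16, against 459 CPM in the other control fibroblasts and 323 CPM in the other WD fibroblasts. Choosing cells by Pi16 UMIs fixes that they hold most of the Pi16 UMIs and leaves the others low, and a fixed number of UMIs selects deep cells, so the Pi16 share, the level in the other cells and the depth are a description of the choice.

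Further genes of the Pi16 list behaved alike in the 12 cells. Cd248, which encodes endosialin, had 12, 206 and 212 UMIs in 9, 20 and 46 cells and was higher in the HHcy-labelled library at 2.29 (1.46 to 3.27), with 0.88 in the WD library. With every cell weighing the same the former was 1.39. Sema3c, a secreted semaphorin gene, had 3, 163 and 93 UMIs, at 3.96 (2.38 to 6.25) and 1.69 (0.10 to 4.00). Ly6c1 was higher in both libraries at 2.17 (1.52 to 2.91) and 1.49 (0.84 to 2.21), although 14 of its 20 control UMIs lay in 1 cell. Cd55, a complement regulator gene, was higher in both as well at 3.59 (1.69 to 6.65) and 2.28 (0.39 to 5.35) from 2 control UMIs. The annexin gene Anxa3 (1.74) and the sialomucin gene Cd34 (1.07) were higher in the HHcy-labelled library and stood at -0.07 and 0.14 in the WD library. Mfap5, a microfibril gene outside this list, went with it at 1.36 (1.08 to 1.65), and 81.3% of its UMIs in the HHcy-labelled library lay in the 12 cells; its median cell had 768, 691 and 561 CPM, and with every cell weighing the same its value was 0.61.

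Other adventitial genes differed in these cells between the libraries. In the HHcy-labelled library the 12 cells carried 67.4% of C3 and 38.0% of Dcn UMIs but 17.5% of Mgp, 15.1% of Smoc2 and 13.0% of Col15a1 UMIs. Smoc2 stood at 127 CPM in them and 588 CPM in the other 44 cells, Mgp at 4486 and 17468 CPM, and Col15a1 at 95 and 524 CPM. The 3 control cells rich in Pi16 showed the opposite order, with 1700 against 1257 CPM of Smoc2, 39464 against 20806 CPM of Mgp and 1202 against 745 CPM of Col15a1. However, these 3 cells held 0 of 3 Sema3c, 0 of 20 Ly6c1 and 2 of 12 Cd248 UMIs of the control library. They held 40.6% of its Fbn1 UMIs, beside 17.3% of all UMIs. Pi16 stood at 1492 CPM in them and 4241 CPM in the 12 cells, so like cells were not compared. In the WD library the 24 cells rich in Pi16 held 77.2% of Pi16, 78.5% of Sema3c, 65.6% of Cd248 and 57.3% of Mfap5 UMIs, and 50.5% of C3, 26.2% of Mgp and 23.6% of Smoc2 UMIs, beside 35.7% of all UMIs. Igfbp5, which encodes an insulin-like growth factor binding protein, differed between them: 83.4% of its UMIs lay in these cells in the HHcy-labelled library and 14.2% in the WD library. In the HHcy-labelled library 8 of the 12 cells had an Igfbp5 UMI, and 1 of them held 766 of the 2037. The 2 cells richest in Igfbp5, given below, were both among the 12, so few cells set this share.

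**Figure D3:**
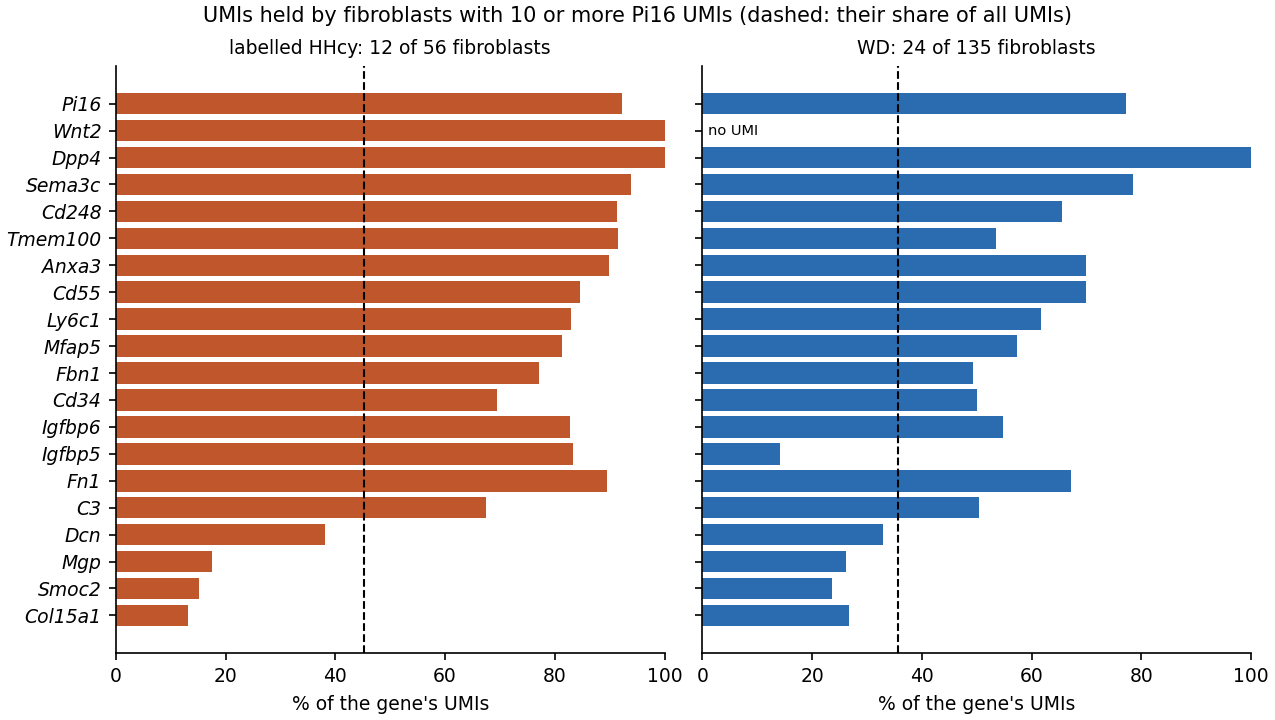
Percent of each gene's UMIs held by fibroblasts with at least 10 Pi16 UMIs in the HHcy-labelled library (left, 12 of 56 cells) and the WD library (right, 24 of 135 cells); the dashed line is the percent of all UMIs those cells held, 45.3% and 35.7%. Pi16, by which the cells were chosen, and Cd248 and Sema3c lie to the right of the line in both libraries and Mgp, Smoc2 and Col15a1 to the left.

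Col15a1 stands for the vessel-associated fibroblast state. It had 115, 161 and 688 UMIs in 13, 33 and 89 cells, and was lower in the HHcy-labelled library at -1.32 (-1.68 to -0.96). The pooled level there was 330 CPM, against 824 CPM in the control library and 515 CPM in the WD library. When every cell weighed the same the value of the HHcy-labelled library was -0.41, and thinned shares of 35.0%, 34.0% and 33.1% lay close together. Of the 14 genes of this list, 11 were compared in the HHcy-labelled library with 3 lower and 0 higher (median -0.49), and 12 in the WD library with 1 lower and 0 higher (median -0.71). Detection of 1 UMI did not separate cells by Pi16 and Col15a1: 103 of 213 fibroblasts had UMIs of both genes, 60 of Pi16 alone, 32 of Col15a1 alone and 18 of neither. At least 10 UMIs of Pi16 were present in 39 fibroblasts, of Col15a1 in 33 and of both in 7. These 7 were 1, 0 and 6 fibroblasts of the control library, the HHcy-labelled library and the WD library.

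Named by rule, the genes furthest above control in the HHcy-labelled library were Tmem100 (3.93, 2.05 to 7.0, from 2 control UMIs), Cd248, Ly6c1, Ppp1r14b (2.05), Uap1 (1.84), Gfpt2 (1.76), Anxa3, Mgst1 (1.74), Pi16, Anxa1 (1.62), Arl4a (1.59) and Mfap5. Gfpt2 and Uap1 encode the entry and last enzymes of UDP-N-acetylglucosamine synthesis, which feeds the making of hyaluronan and glycoproteins. Gfpt2 had 11, 130 and 198 UMIs in 9, 24 and 56 cells and Uap1 had 9, 113 and 152 UMIs in 7, 28 and 46 cells. Furthest below were Smoc2, Fmod, the growth factor gene Gdf10 (-1.34), Col15a1, Col4a2, Mxra7 (-1.19), Emp1 (-1.19), the tissue factor gene F3 (-1.15), Nr2f2 (-1.10), Mgp, the chaperone gene Dnaja1 (-1.05) and the adhesion gene Svep1 (-1.03). Nr2f2, which encodes the transcription factor COUP-TFII, stood at 452, 211 and 285 CPM.

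Of 13 complement genes 10 were compared in the WD library; 5 were higher and 0 lower, with a median of 0.87. The median was 0.18 among fibroblasts with few leukocyte markers, with 4 genes higher, and 0.21 after thinning, with 2 higher. Of the 5 higher genes C3 and Cfb had 30 control UMIs or more. In the HHcy-labelled library 2 of 10 were higher (Cd55 and Clu) and 1 was lower, with a median of 0.11. C3, the central component on which all complement pathways meet, lies on GRCm38 chromosome 17 at 57203967 to 57228136 on the minus strand. The 250 bases before its start are shown because C3 carried more UMIs than any other higher gene of this list, and capitals mark matches to the C/EBP motif TTNNGNAA.

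C3, chr17:57228137-57228386, minus strand: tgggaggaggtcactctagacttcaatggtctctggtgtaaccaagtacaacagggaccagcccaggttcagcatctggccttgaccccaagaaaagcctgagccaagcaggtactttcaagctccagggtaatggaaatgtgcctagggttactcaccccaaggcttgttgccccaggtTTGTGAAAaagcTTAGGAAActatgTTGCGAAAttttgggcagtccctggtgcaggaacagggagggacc

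The sequence is RefSeq's for GRCm38.p6. Its 3 matches, TTGTGAAA, TTAGGAAA and TTGCGAAA, begin 70, 58 and 45 bases before the start and do not overlap. The motif was searched on both strands, and 36.85% of 32851 windows of this length held it, so a match is common.

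C3 had 209 UMIs in 8 of 22 control fibroblasts, 961 UMIs in 32 of 56 fibroblasts of the HHcy-labelled library and 5906 UMIs in 97 of 135 WD fibroblasts. Of the control UMIs, 122 lay in 1 cell. The pooled level was 1498, 1968 and 4417 CPM, and the median cell had 0, 196 and 1146 CPM, so the order held in the typical cell as well. The WD log2 ratio was 1.56 (1.36 to 1.77), and the HHcy-labelled library stood at 0.39. After thinning, 25% of control fibroblasts (exact interval 8.66% to 49.1%), 43.4% of those labelled HHcy (29.8% to 57.7%) and 54.8% of WD fibroblasts (45.7% to 63.8%) had a C3 UMI, against 0.4%, 0.8% and 0.8% of thinned B cell barcodes. Among fibroblasts with fewer than 4 markers of each leukocyte list the WD value was 2.27 and that of the HHcy-labelled library 1.77. With every cell weighing the same they were 1.76 and 0.82. Without the 3 deepest cells of each library they were 2.10 and 1.20, both past 2-fold. That setting leaves out the control cell with 122 of the 209 control UMIs, so the value of 0.39 depends on this cell.

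Cfb, which encodes factor B of the alternative pathway, had 31, 178 and 970 UMIs in 7, 32 and 92 cells and was called higher in the WD library at 1.71 (1.19 to 2.27). C4b, of the classical and lectin pathways, had 22, 120 and 665 UMIs in 6, 17 and 76 cells and was called higher there at 1.66 (1.05 to 2.34). Among fibroblasts with few leukocyte markers these WD values were 1.25 for Cfb and 1.22 for C4b. Clu, which encodes clusterin, a fluid-phase inhibitor of the terminal pathway, was higher in both libraries at 3.18 and 2.40 from 4 control UMIs. The protease genes C1s1 and C1ra and the inhibitor gene Serping1 were called in neither library; Serping1 stood at 2193, 1794 and 2479 CPM.

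Of 24 chemokine and cytokine genes, 19 were compared in the WD library, with 10 higher, 1 lower and a median of 1.14. Ccl19 alone of the 10 had 30 control UMIs or more; the other 9 passed the filter only with their WD UMIs. In the HHcy-labelled library 14 were compared, with 4 higher, 1 lower and a median of 0.20. Ccl19, a ligand of CCR7 that guides lymphocytes and dendritic cells (GRCm38 chromosome 4, 42754525 to 42756365), had 47 UMIs in 13 control cells, 243 UMIs in 33 cells of the HHcy-labelled library and 1729 UMIs in 102 WD cells. It was called higher in the WD library at 1.94 (1.52 to 2.39), and in the HHcy-labelled library it stood at 0.56. The median cell had 210, 202 and 300 CPM, a smaller difference than the pooled 337, 498 and 1293 CPM, and without the 3 deepest cells of each library the WD value was 1.05. Cxcl12, a ligand of CXCR4, had a WD value of 0.71, short of 2-fold, yet its median cell had 193, 254 and 840 CPM.

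Cxcl1, a neutrophil attractant (GRCm38 chromosome 5, 90891245 to 90893121), had 25, 119 and 755 UMIs in 5, 15 and 58 cells. It was called higher in the WD library at 1.66 (1.08 to 2.29), but with every cell weighing the same the value was 0.62. Cxcl1 UMIs were present in 7.8%, 4.96% and 9.49% of B cell barcodes, and thinned shares were 10.0%, 7.55% and 20.2% of fibroblasts against 1.24%, 0.725% and 1.59% of B cell barcodes. Windows before the start were found for 10 of 13 genes searched, 11 windows in all. That of Cxcl1 is shown because it alone held the NF-kappaB motif, which 3.899% of 32851 windows hold. It is RefSeq's for GRCm38.p6, and capitals mark 2 matches, 1 on each strand, that overlap each other.

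Cxcl1, chr5:90890995-90891244, plus strand: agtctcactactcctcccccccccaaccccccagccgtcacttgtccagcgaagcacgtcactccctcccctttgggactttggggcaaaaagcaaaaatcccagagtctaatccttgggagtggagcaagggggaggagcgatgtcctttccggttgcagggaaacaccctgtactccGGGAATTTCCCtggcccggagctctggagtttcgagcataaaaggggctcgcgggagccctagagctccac

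Il33, an alarmin of stromal cells, had 8, 67 and 354 UMIs in 5, 13 and 61 cells and was higher in both libraries at 1.26 (0.20 to 2.53) and 2.21 (1.21 to 3.43). Among fibroblasts with few leukocyte markers its values were 2.01 in the HHcy-labelled library and 2.37 in the WD library. With every cell weighing the same they were 0.23 and 0.90, both short of 2-fold. Ccl2 and Ccl7, attractants of monocytes, had 5, 53 and 906 UMIs and 9, 44 and 653 UMIs. They were higher in the WD library at 4.24 (3.01 to 5.87) and 2.92 (1.99 to 4.06), though 430 of the 906 Ccl2 UMIs lay in 1 cell. Ccl2 was higher in the HHcy-labelled library as well, at 1.60 (0.29 to 3.28), with 55% of its UMIs in 1 cell. Among fibroblasts with few leukocyte markers these WD values were 1.5 for Ccl2 and 1.51 for Ccl7. Ccl2 UMIs were present in 16.7%, 15.5% and 21.6% of B cell barcodes, so part of this RNA lay outside fibroblasts.

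Single cells decided some chemokine values. Of 424 Cxcl9 UMIs in the WD library 410 lay in 1 cell, and of 192 Cxcl13 UMIs in the HHcy-labelled library 132 lay in 1 cell, with 0 control UMIs of either gene. Cxcl2 was higher in both libraries (1.18 and 1.14), with 63% of the UMIs of the HHcy-labelled library in 1 cell. Il6 was lower in the HHcy-labelled library at -3.67 (-4.64 to -2.80), with 51, 14 and 377 UMIs in 7, 5 and 46 cells, and 53% of the control UMIs lay in 1 cell. Ccl8 at 3.32 (0.81 to 8.64), Cxcl10 at 1.22 (0.06 to 2.69) and Cx3cl1 at 2.78 (0.26 to 8.11) were also higher in the WD library, from 1, 6 and 1 control UMIs, and the eosinophil attractant gene Ccl11 was lower there at -1.06 (-1.65 to -0.41).

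**Figure D4:**
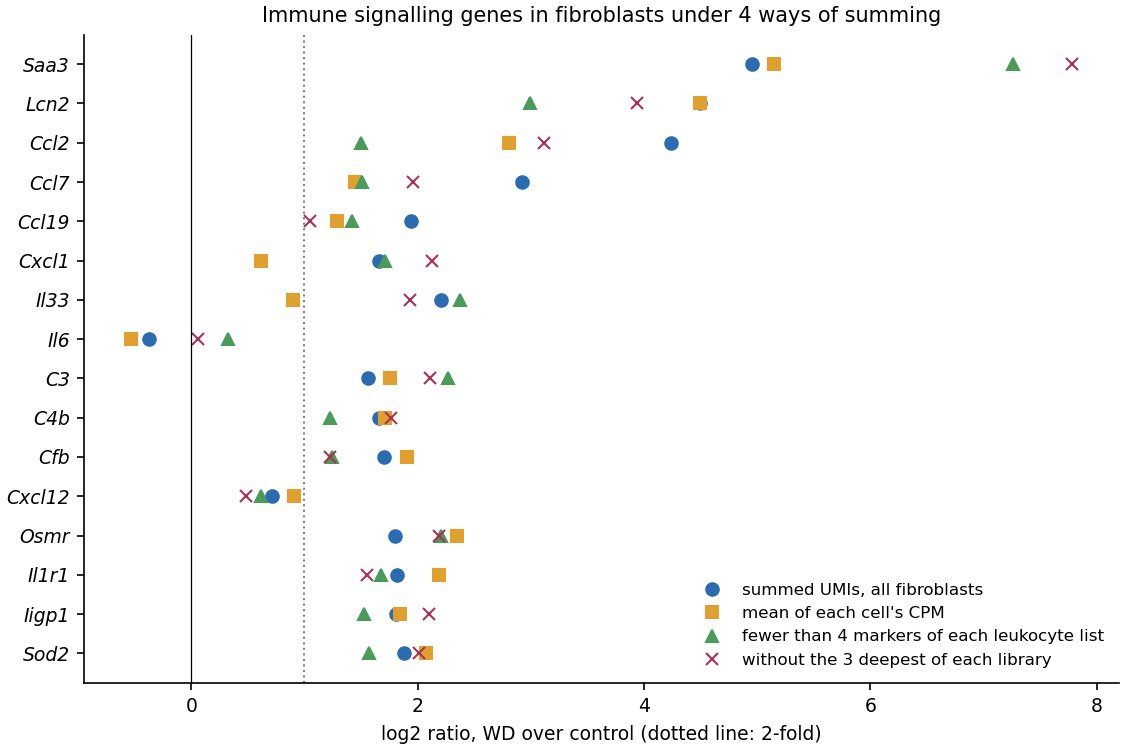
Log2 ratio of the WD library over the control library for 16 immune signalling genes from summed UMIs (circles), from the mean of each cell's CPM (squares), among fibroblasts with fewer than 4 markers of each leukocyte list (triangles) and without the 3 deepest fibroblasts of each library (crosses); Lcn2 had 0 control UMIs and is set against the floor. For C3 all 4 values lie between 1.56 and 2.27, whereas those of Ccl2 lie between 1.5 and 4.24.

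Saa3 and Lcn2, acute-phase genes that were chosen for description after their values were seen, lay in few cells. Saa3, which encodes a serum amyloid protein, had 10 UMIs in 2 control cells, 2526 UMIs in 5 cells of the HHcy-labelled library and 2967 UMIs in 33 WD cells. In the HHcy-labelled library 2522 of the 2526 lay in 1 cell of 27100 UMIs, which also held 71 of 72 UMIs of Lcn2, which encodes the iron-carrier-binding lipocalin 2, and 737 of 1069 UMIs of the stromelysin gene Mmp3. In the WD library 12 cells with at least 10 Saa3 UMIs held 15.4% of all fibroblast UMIs. Their 98.6% of Saa3 UMIs follows from the choice of cells. They held 70.0% of Lcn2, 61.4% of Ccl2, 48.6% of Il33 and 44.9% of Ccl7 UMIs, found in 10, 8, 11 and 9 of the 12. Single cells weighed much here too: 1 of the 12 held 1466 of the 2967 Saa3 UMIs and 0 Ccl2 UMIs. Another was the WD cell richest in Ccl2 described above. The same 12 cells held 38.1% of Cfb, 35.4% of C3, 35.0% of Mmp3, 29.0% of Cxcl1 and 13.9% of Dcn UMIs. In the other 123 WD fibroblasts C3 still stood at 3375 CPM.

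Of matrix proteases and their inhibitors, 4 of 12 were higher in the HHcy-labelled library (median 0.03) and 5 of 13 in the WD library (median 0.68), with 0 lower in either. Adamts1, a versican-cleaving protease gene, and Plat, which encodes tissue plasminogen activator, were higher in both (Adamts1 1.37 and 1.31, Plat 1.44 and 1.27). Serpina3n, a serine protease inhibitor gene, was called higher in the WD library at 1.21 (0.71 to 1.76). Mmp3 was called higher in both at 1.24 and 1.67, and without the 1 cell rich in Saa3 its value in the HHcy-labelled library was -0.52. Among WD fibroblasts with few leukocyte markers, 1 gene of this list was higher.

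Of 19 receptor genes compared in the WD library 2 were higher (median 0.15). Il1r1, the interleukin-1 receptor, had 5, 48 and 169 UMIs in 5, 19 and 66 cells, at 1.46 and 1.82 (0.57 to 3.46 in the WD library). Osmr, the oncostatin M receptor, had 6, 24 and 200 UMIs in 2, 11 and 61 cells and stood at 1.80 (0.65 to 3.26) there. Of 18 compared in the HHcy-labelled library 3 were higher (median 0.20), including Tgfbr3 (1.33) and Ackr3 (1.35), which encodes a scavenging receptor of Cxcl12. Among transcription factors 1 of 16 was higher and 1 lower in the HHcy-labelled library (median 0.32; Klf4 1.01, Nr2f2 -1.10), and 1 of 20 was higher in the WD library (median 0.11; Nfkb1 1.62). Growth factors and binding proteins had 4 of 16 higher and 3 lower in the HHcy-labelled library (median -0.21) and 3 of 22 higher in the WD library (median 0.10). Gas6, a ligand of TAM receptors, stood at 1670, 457 and 1335 CPM and was lower in the HHcy-labelled library at -1.87 (-2.14 to -1.60). Igfbp5 was higher in that library at 2.22, with 766 and 631 of its 2037 UMIs in 2 cells, and Sfrp4, a secreted Wnt modulator, was called higher in the WD library at 1.20 (0.86 to 1.56).

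Contractile genes were seen in few fibroblasts. Of 15 myofibroblast genes 11 were compared in each library; 4 were higher and 2 lower in the HHcy-labelled library (median 0.77), and 4 were higher and 0 lower in the WD library (median 0.95). Acta2, smooth muscle actin, had 0 UMIs in control, 78 UMIs in 7 cells of the HHcy-labelled library and 365 UMIs in 24 WD cells. The 0 of 22 control cells limit the share of cells with an Acta2 UMI, not of cells expressing it, to 13.6% by the floor of 3 counts and 15.4% by the exact interval. Fibroblasts with at least 10 Acta2 UMIs, again a limit chosen after the values were seen, numbered 0, 2 and 6, and they held 87.2% and 89.3% of the Acta2 UMIs. These 2 and 6 cells also held all UMIs of the smooth muscle myosin gene Myh11 (9 and 30), which lay in 2 of the 2 and 2 of the 6. Dcn stood at 3748 and 6183 CPM in these 2 and 6 cells, against 13634 and 12455 CPM in the other fibroblasts. Acta2 and Tagln stand on both the myofibroblast and the smooth muscle list, so these lists are tied by shared genes. Acta2 and Tagln had 78 and 48 of the 218 smooth muscle list UMIs in the HHcy-labelled library. In the WD library they had 365 and 303 of 912. The part of smooth muscle RNA in the myofibroblast values was not tested. Ccn2, a connective tissue growth factor gene of this list, was lower in the HHcy-labelled library at -1.47 (-1.70 to -1.24).

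Interferon-stimulated genes had 5 of 25 higher and 1 lower in the WD library (median 0.49), and 0 of 12 higher and 2 lower in the HHcy-labelled library (median -0.30). Higher were Iigp1 (1.81), Gbp2 (1.97), Igtp (1.93) and Gbp3 (0, 20 and 60 UMIs), which encode interferon-induced GTPases, and Rtp4 (1.91). Iigp1 had 11, 36 and 369 UMIs in 6, 14 and 64 cells. Of the 5 higher genes 0 had 30 control UMIs or more, so all passed the filter only with their WD UMIs. The list summed to 4236, 4072 and 6724 CPM in fibroblasts and to more in myeloid barcodes, 6750, 7780 and 8148 CPM. The part of leukocyte RNA in these values was not tested. Among fibroblasts with few leukocyte markers the WD value of Iigp1 was 1.52. The lower gene was Isg15, a ubiquitin-like modifier, with 48, 14 and 224 UMIs and -1.04 in the WD library, but 44 of the 48 control UMIs lay in 1 cell. Without the control library's deepest cell, which is also its cell with the most Saa3, and the matching cells of the other libraries, Isg15 stood at 2.40 and 12 genes of the list were higher; with Ptprc at 0 there were 13. Of MHC class I genes none was called in either library (0 of 7, median 0.09; 0 of 8, median 0.38); H2-K1 stood at 645, 932 and 1030 CPM.

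The lists tied most directly to the treatments had 4 to 19 genes compared, too few for a count of 0 or 1 to be a result. Over all genes, in either direction, 9.28% were called in the HHcy-labelled library and 5.46% in the WD library. Of 20 one-carbon and homocysteine genes only 4 had enough UMIs in the HHcy-labelled library (Mat2a, Mat2b, Ahcyl1 and Nnmt) and 6 in the WD library, with 0 called in either and medians of 0.11 and -0.23. Cbs, the enzyme that condenses homocysteine with serine, had 0, 0 and 1 UMIs, Cth had 0, 1 and 0, and Bhmt and Gnmt had 0 in all libraries. Of 28 cholesterol and lipoprotein genes 8 were compared in the HHcy-labelled library, with 2 higher (the exporter gene Abca1 at 1.21, and Apoe) and a median of 0.32. In the WD library 19 were compared, with 1 higher, Fdps, an enzyme of isoprenoid synthesis (0, 13 and 71 UMIs), and a median of 0.63. The unfolded protein response list had 0 of 14 called in the HHcy-labelled library (median -0.06) and 2 of 15 higher in the WD library (median 0.20; the trophic factor gene Manf 1.10 and the co-chaperone gene Dnajb9 1.05). The oxidant response list had 2 of 14 higher in the HHcy-labelled library (median 0.23) and 1 of 17 in the WD library (median 0.42); Sod2, the mitochondrial superoxide dismutase, was in both at 1.64 and 1.88, with 56 of its 98 UMIs in the HHcy-labelled library in 1 cell.

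Immediate early and heat shock genes respond to tissue digestion among other stresses. Immediate early genes had 0 of 17 called in the HHcy-labelled library (median -0.11) and 1 of 19 higher in the WD library (median -0.04; Ier3 1.68). Heat shock genes had 3 of 14 lower in the HHcy-labelled library (median -0.47) and 1 of 15 higher and 2 lower in the WD library (median 0.09). Hspa1b, an inducible heat shock protein gene, stood at 1233, 246 and 408 CPM, and of the 49 control UMIs of Hsph1 39 lay in 1 cell. The retinoid and steroid list had 2 of 12 lower in the HHcy-labelled library (median -0.19) and 1 of 13 in the WD library (median -0.34), where Tsc22d3, a glucocorticoid-induced gene, stood at 444, 340 and 177 CPM.

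**Figure D5:**
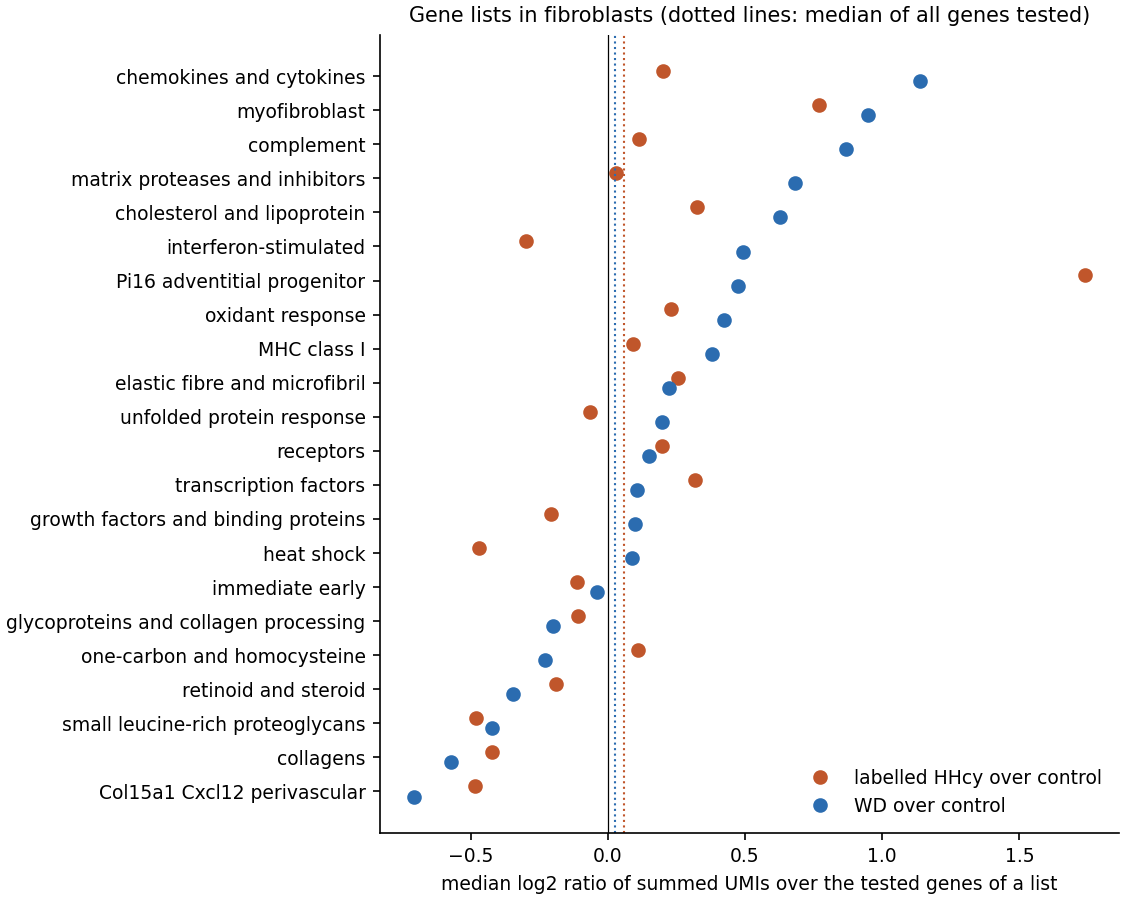
Median log2 ratio over the compared genes of each of the 22 lists, for the HHcy-labelled library and the WD library over the shared control library; dotted lines mark the medians of all genes, 0.06 and 0.03. The Pi16 list lies at 1.74 for the HHcy-labelled library and the chemokine list at 1.14 for the WD library. Collagens, which include Col1a1, Col1a2 and Col3a1 of the rule, lie left of the dotted lines in both at -0.42 and -0.57.

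Named by the same rule, the genes furthest above control in the WD library included Gm12840 (4.92, 3.06 to 7.97), the protocadherin gene Pcdh7 (3.25, 1.37 to 6.30), Ltbp2, the tropomyosin gene Tpm2 (2.40, 0.51 to 5.46), Clu, Tmem100 (2.37, 0.48 to 5.43), Il33, Ccl19, the filamin-binding gene Fblim1 (1.84), the autophagy regulator gene Dram1 (at least 1.83 on the log2 scale, with 0 control UMIs) and Il1r1. Gm12840 had 2, 57 and 580 UMIs in 2, 12 and 35 fibroblasts, and 6.8%, 5.5% and 6.4% of B cell barcodes had a UMI of it. Furthest below were Fmod, the protease gene Pcsk6 (-1.38), the glypican gene Gpc3 (-1.25), Loxl2, Col4a4 (-1.22), Acbd3 (-1.19), Col6a2, the perlecan gene Hspg2 (-1.16), the caveolar coat gene Cavin1 (-1.14), Podn, Ces2g (-1.11) and Lama2. Hspg2 had 52, 107 and 223 UMIs in 14, 34 and 85 cells, at 373, 219 and 167 CPM, so the HHcy-labelled library lay between the others.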

How the data were processed

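Raw, unnormalized UMI counts per barcode of 32285 genes, as deposited by the authors, were used, from Chromium 3' version 3 libraries per the labels' protocols. The software was Cell Ranger 4.0.0 per the file headers, whereas Cell Ranger 2.2.0 and mm10 are named per the submitters' processing notes. Each library stood for 1 group, and 0 columns belonged to samples outside the series. Total counts of all called barcodes were 66789257, 105180370 and 93164076 in the control library, the HHcy-labelled library and the WD library.

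From these counts, UMIs were summed over fibroblasts and scaled to their total. Ratios carry exact conditional binomial intervals and shares exact Clopper-Pearson intervals. Zero control counts were set to a floor of 3. Genes needed 30 UMIs in the 2 libraries compared and were called at 2-fold. Named genes were the 12 most extreme per direction with at least 100 UMIs, no cell holding over 25% of them in the higher library, and a level in B cell and myeloid barcodes below 50% of that in fibroblasts, together with genes of the 22 lists. Some genes that met this rule are not reported here. Members and lists were chosen with earlier results of these data known. Promoter windows and gene positions came from RefSeq GRCm38.p6. Alternatives varied the mitochondrial limit, the Dcn, Ptprc and leukocyte limits, scaling, cell weighting, depth (thinning to 1000 UMIs, which left out 2, 3 and 11 fibroblasts) and the UMI filter; leaving out particular cells was added after seeing the data. Python 3.11.15, numpy 2.4.6, scipy 1.17.1, pandas 2.3.3, scanpy 1.11.5 and matplotlib 3.10.9 were used, and the ratio script was tested on simulated data.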

Additional observations from a re-analysis of the deposited data

How the results depend on the processing

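No paired analysis was possible because each group is 1 library. Requiring fewer than 4 markers of each leukocyte list gave fibroblast shares of 0.466% (38 cells) in the HHcy-labelled library and 1.24% (83 cells) in the WD library, and it lowered the genes called higher in the HHcy-labelled library from 177 to 112 and those called lower in the WD library from 178 to 86. Thinning every fibroblast to 1000 UMIs left 20 higher and 13 lower genes in the HHcy-labelled library and 30 higher and 24 lower in the WD library, with fewer UMIs behind each, and 7 and 9 lists with a median above 0 in place of 12 and 15. A filter of 100 UMIs gave 50 higher and 28 lower genes in the HHcy-labelled library and 37 lower in the WD library, and a filter of 10 UMIs gave 227 and 288 lower. Under thinning the sign turned for the myofibroblast list in the HHcy-labelled library (-1.41), the cholesterol and lipoprotein list in the WD library (-0.11) and Igfbp6 in the HHcy-labelled library (-0.24, from 1.29).

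Without the 3 deepest fibroblasts of each library the sign turned for Cilp (0.068 in the HHcy-labelled library and 0.19 in the WD library, from -1.91 and -1.92) and for Comp in the WD library (4.86, from -1.49). Mmp3 in the HHcy-labelled library stood at -0.57 without those cells, -0.52 without the cell with the most Saa3 and -0.32 with Ptprc at 0. Isg15 in the WD library stood at 2.05, 2.40 and 1.88 under the same settings and 1.60 with few leukocyte markers. Leaving out the 3 deepest cells, the cell with the most Saa3 or cells with a Ptprc UMI each removed 2 cells in common. These were the control cell with 44 of 48 Isg15 UMIs and the cell of the HHcy-labelled library with 737 of 1069 Mmp3 UMIs. Each had 1 Ptprc UMI, so these settings are not separate checks. Beyond the cells left out, the cause was not tested. Over all genes followed, 1310 of 1554 alternative values stayed within the counting interval of the reported value, and 48 had the opposite sign, of which 11 were of genes called in the report. Of 569 alternative list medians 549 stayed within the medians of their genes' bounds and 67 had the opposite sign, 2 of them of lists with a reported median of at least 0.5 in size; medians near 0 carry no direction. The 22 control fibroblasts limit every comparison.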
